A study of Mus musculus with 6 samples.

Results

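The sites described here are the RNA G-quadruplex motifs of 3 genes of glucose and lactate metabolism: Pkm, Slc16a3 and Tkt. They were chosen by symbol, as every entry of the deposited tables whose gene column named one of the 3 genes. This gave 10 of the 5538 sites in each table, of which 1 lay in Pkm, 5 in Slc16a3 and 4 in Tkt. No measured value entered that rule.

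Pkm encodes the muscle-type pyruvate kinase, which catalyses the last ATP-forming step of glycolysis and is made in M1 and M2 forms that differ by a pair of mutually exclusive exons. Slc16a3 encodes the monocarboxylate transporter MCT4, which carries lactate out of glycolytic cells. Tkt encodes transketolase, an enzyme of the non-oxidative pentose phosphate pathway that links ribose phosphates to glycolytic intermediates. Pluripotent stem cells are known for high rates of glycolysis, and the use of these pathways changes as such cells differentiate. A G-quadruplex is a stack of guanine tetrads formed by 4 runs of guanines, stabilised by K+ and hardly by Li+.

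The cells were a clonal TsixTST/+ mouse embryonic stem cell line (TST) with the cell line label 129S1/CastEiJ x 129S1, the genotype label WT and the treatment label None. All libraries came from this 1 clone, grown on inactivated feeder cells with LIF and freed of the feeders before differentiation. Embryoid bodies were formed without LIF, held in suspension to day 3 and then attached to gelatinized plates. There were 2 samples each of day 0, day 3 and day 7, and each day 7 sample had 1 further table named in vitro, whose preparation the labels do not describe. Cells were exposed to dimethyl sulfate (DMS), which modifies guanines that are not protected in a folded quadruplex. Chromatin-bound polyadenylated RNA was then fragmented and reverse transcribed in K+ or in Li+. Unmodified motifs can fold and halt the enzyme in K+, so the stop share (stops divided by coverage) was read in K+ against Li+. Nothing in the labels says that the samples of a day came from separate cultures, and the p-values therefore reflect only how far these samples spread, which may be technical.

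Coverage outside ribosomal and mitochondrial RNA ran from 87479 to 831346 in the K+ libraries and from 94677 to 1536568 in the Li+ libraries of cells, and 9 ribosomal and mitochondrial sites held 63.5% to 83.8% of all in-cell coverage. Outside those sites the stop share was 47.7% in K+ and 8.20% to 9.27% in Li+ in vitro, against 4.37% to 9.62% in K+ and 4.21% to 6.81% in Li+ in cells. The K+ share of 9.62% was that of day 3 replicate 1, which also had the lowest K+ coverage, and day 3 replicate 2 had 4.90%. Of 12 pluripotency markers 7 had a site, and their summed reads, scaled to library size (CPM), were 3468 and 3324 on day 0, 3785 and 4150 on day 3, then 1668 and 1847 on day 7. Of 10 markers of differentiating cells 8 had a site, with sums of 30.8 and 0 on day 0, 426 and 347 on day 3, then 8168 and 4193 on day 7. On day 0, 7 of those 8 were at 0 in both samples. The first sum followed Pou5f1 (1754 and 1809 CPM on day 0, then 167 and 441 CPM on day 7), while Lin28a was at 860 and 651 CPM on day 7, against 382 and 492 CPM on day 0, and Trim71 overlapped between these days. In the second sum H19 alone gave 6803 and 2812 CPM on day 7. The lowest coverage listed above 0 was 6 reads, so a listed 0 may stand for fewer than 6 reads. Of 7 fibroblast markers for the feeder cells only Col1a1 had a site, at 0 on days 0 and 3 and at 20.2 and 21.3 CPM on day 7. The part of these marker levels in the values below was not tested.

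All 10 motifs lay on the plus strand and were annotated in 3′ untranslated regions (UTRs), with Tkt sites 1 and 2 also annotated as coding sequence. Their sequences are shown because the motifs differ in the number, length and spacing of their guanine runs, and their stop shares differed widely. Letters run 5′ to 3′ as DNA, capitals mark runs of 2 or more guanines, positions are 1-based on GRCm38 and the class in brackets is the deposited one.
Pkm (canonical, chr9:59679159-59679183): GGGGctgaGGGtgtGGGGcccaGGG
Slc16a3 site 1 (canonical, chr11:120958144-120958162): GGGcGGGcaGGGagcaGGG
Slc16a3 site 2 (bulges, chr11:120958207-120958229): GGaccagctgaGGGcGGGcGGGG
Slc16a3 site 3 (two-quartet, chr11:120958277-120958292): GGGGagaGGtGGcGGG
Slc16a3 site 4 (bulges, chr11:120958277-120958297): GGGGagaGGtGGcGGGGtGGG
Slc16a3 site 5 (potential G-quadruplex, bases 14 to 43 of the 60 at chr11:120958474-120958533): gaGGGcaGGGctGGGacaGGctGGcaGGtg
Tkt site 1 (canonical, chr14:30573506-30573524): GGGctaGGGaGGGcatGGG
Tkt site 2 (bulges, chr14:30573506-30573531): GGGctaGGGaGGGcatGGGatgctGG
Tkt site 3 (canonical, chr14:30573512-30573536): GGGaGGGcatGGGatgctGGGtGGG
Tkt site 4 (bulges, chr14:30573567-30573596): gaGGtGGcgaaGGtgtactgagtGGGGaGG

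Canonical motifs have 4 runs of at least 3 guanines with loops of 1 to 7 bases, and 4 of the 10 sites were of this class: Pkm, Slc16a3 site 1, Tkt site 1 and Tkt site 3. Tkt sites 1 to 3 overlap one another and Slc16a3 sites 3 and 4 begin at the same base, so these are not independent readings. The Pkm motif ended 189 bases before the end of the gene in the RefSeq annotation of GRCm38.p6, and was listed with 2 transcripts. The last listed stop position of each site lay 0 to 2 bases beyond the motif's 3′ end, the side that reverse transcriptase meets first. Coverage was summed over 1 or 2 listed stop positions per site, so levels of different sites are compared only per stop position. In 144 pairs of neighbouring sites, those with 2 positions had a median of 1.965 times the coverage of those with 1. A read that passes both positions is thus counted at each, and counts there are not numbers of separate reads. Exact intervals at such sites are too narrow. Shares at sites with 1 and with 2 positions are not strictly the same measure.

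In vitro, all 10 sites stopped reverse transcriptase more often in K+ than in Li+, with mean K+ shares from 21.6% to 87.3%. Slc16a3 site 1 was the highest, with 86.9% (689 of 793 reads) and 87.7% (996 of 1136 reads) in K+, against 8.22% and 6.02% in Li+. It ranked at 99 of 867 canonical sites and at 254 of all 5538 sites by its mean K+ share. Pkm, of the same class and with runs of up to 4 guanines, had 26.1% (67 of 257 reads) and 21.9% (48 of 219 reads) in K+, against 4.61% and 6.11% in Li+. Its mean of 24.0% ± 2.94 (SD, n = 2) ranked at 840 of the 867 canonical sites, whose median was 56.7%. By this ranking Slc16a3 site 1 and Pkm stood near opposite ends of the same motif class. The ranking took no account of the number of stop positions, which was 2 at Slc16a3 site 1 and 1 at Pkm.

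Among the Slc16a3 sites the K+ share averaged 87.3% ± 0.559 at site 1, 21.6% ± 5.24 at site 2, 37.4% ± 3.31 at site 3, 48.4% ± 1.70 at site 4 and 58.1% ± 1.45 at site 5 (SD, n = 2 tables). Sites 3 and 4 have their first 16 bases in common. At the longer motif of site 4 the K+ share was 47.2% and 49.6%, against 35.0% and 39.7% at site 3. The exact Clopper-Pearson 95% intervals, which cover counting error only, were 44.0% to 50.4% at site 4 against 29.2% to 41.2% at site 3 in replicate 1, and 46.9% to 52.3% against 34.5% to 45.1% in replicate 2. They did not overlap in either table, but both sites sum coverage over 2 stop positions, which makes the intervals too narrow. Reverse transcriptase also meets the stops of site 4 before those of site 3 on the same molecules. The intervals therefore do not test the difference between the 2 sites.

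Among the Tkt sites the K+ share averaged 73.5% ± 8.73 at site 1, 23.5% ± 2.24 at site 2, 59.8% ± 0.697 at site 3 and 56.4% ± 7.77 at site 4 (SD, n = 2 tables). Sites 1 and 2 begin at the same base, and site 2 runs on to a further pair of guanines. Stops at the end of site 1 took 67.3% and 79.7% of the K+ reads there, and stops at the end of site 2 took 123 of 560 and 191 of 760 reads. Site 3, which overlaps both and ends last, had 59.3% and 60.3%. Along these overlapping motifs the share was high, low and high again in both tables. Reverse transcriptase meets the stops of site 3 first, then those of site 2, then those of site 1. The K+ coverage was 2843 and 4000 at site 3, 560 and 760 at site 2, and 493 and 576 at site 1. A molecule stopped at site 3 is not counted at sites 2 and 1, so the shares do not compare the motifs directly. Sites 1 and 3 have 2 listed stop positions and site 2 has 1, so these shares are not strictly the same measure. In Li+ the Tkt sites had 2.02% to 8.99%.

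**Figure D1:**
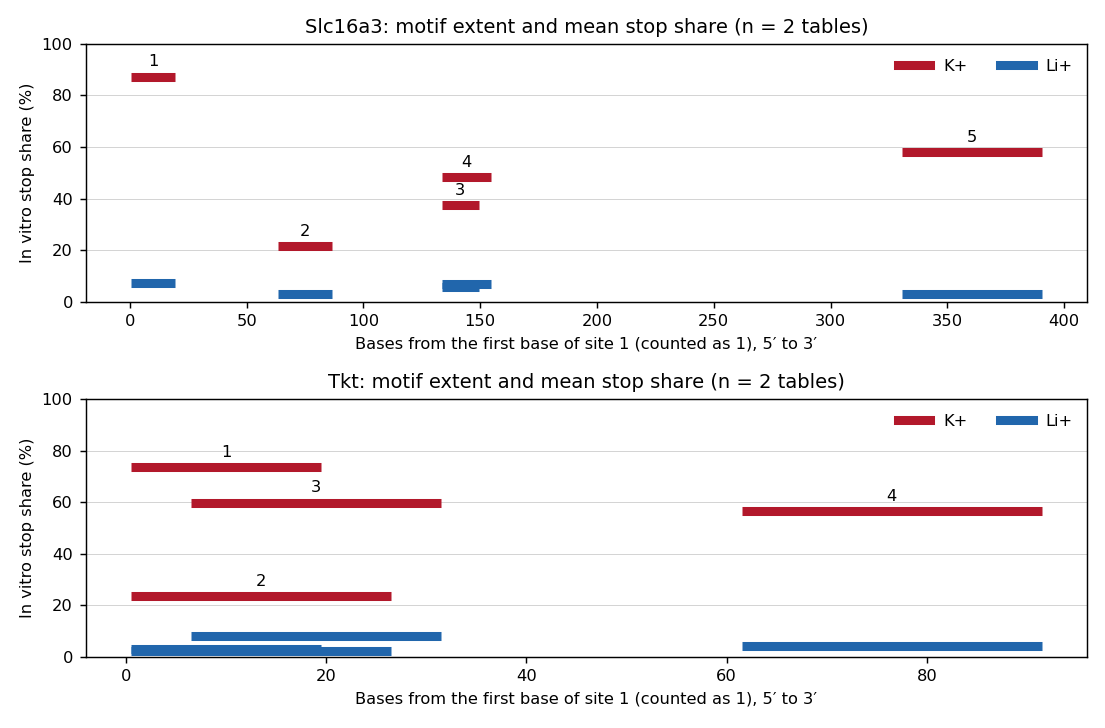
Extent of the Slc16a3 motifs (top) and the Tkt motifs (bottom) along the RNA, in bases from the first base of site 1, against the mean in vitro stop share in percent over 2 tables (red, K+; blue, Li+). Numbers above the red bars name the sites. Every Li+ bar lies at 7.94% or less, and the K+ bars reach from 21.6% (Slc16a3 site 2) to 87.3% (Slc16a3 site 1).

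The odds of a stop in K+ against Li+ were tested in vitro with limma on log2 odds weighted for overdispersion, over all sites with 20 or more reads in every in vitro and day 7 column. Of the 2648 sites tested, 99.6% were higher in K+ at a Benjamini-Hochberg adjusted p under 0.05, and all 10 member sites were among them. All 5538 sites had the higher share in K+ in both in vitro tables. The sources used here do not state how the sites were chosen, and the shared direction is not read as a result about the members. The sizes ran from a log2 odds ratio of 2.48 ± 0.43 at Pkm (SE, limma, adjusted p = 5.43e-05) to 6.48 ± 0.56 at Tkt site 1 (adjusted p = 5.36e-08). The median was 3.90 over the members and 3.57 over all sites tested. By K+ share alone the members' median was 52.4%, against 51.4% over all sites and 53.1% over all sites with a 3′ UTR annotation.

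In cells on day 7 the same sites stopped far less often in K+. Slc16a3 site 1 had 86.9% and 87.7% in K+ in vitro, against 2.64% (6 of 227 reads) and 4.59% (13 of 283 reads) in day 7 cells. Tkt site 1 had 67.3% and 79.7% in vitro, against 2.57% and 1.80% in day 7 cells. Pkm had 26.1% and 21.9% in vitro, against 3.73% (18 of 483 reads) and 4.96% (21 of 423 reads) in day 7 cells. In none of the 10 sites did the 2 tables of the in vitro K+ share overlap those of the cells.

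The Li+ shares differed less, and at 5 of the 10 sites (Slc16a3 sites 4 and 5 and Tkt sites 1 to 3) both in vitro values lay above both day 7 values. At Tkt site 3 they were 6.89% and 8.99% in vitro, against 2.93% and 4.28% in day 7 cells. At the other 5 sites they overlapped. At Slc16a3 site 1 they were 8.22% and 6.02% in vitro, against 5.62% and 8.52% in day 7 cells. At Pkm they were 4.61% and 6.11% in vitro, against 4.66% and 5.28% in day 7 cells.

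The change of the K+ against Li+ odds, in vitro against day 7 cells, was called at 74.5% of the 2648 sites and at all 10 member sites, each time higher in vitro. It was above 0 at 99.4% of all sites tested. The in vitro values enter this change, so its direction is likewise not read as a result about the members. The change ran from 2.68 ± 0.65 on the log2 scale at Pkm (SE, limma, adjusted p = 0.00319) to 7.33 ± 0.68 at Slc16a3 site 1 (adjusted p = 7.91e-06). Its median was 3.91 over the members and 3.36 over all sites tested. A replicate was left out of the in vitro and day 7 tables together, and the day 0 and day 3 libraries were added to estimate the spread. Without replicate 2 the call was lost at Slc16a3 site 3 (3.11), site 4 (2.79) and site 5 (8.14). Without replicate 1 the call was lost at site 3 (4.54). The sites tested also changed, to 4118 without replicate 2 and 2668 without replicate 1. A lost call therefore does not show dependence on the left-out sample alone. At Slc16a3 site 2 the value of 3.69 stood at 5.38 without replicate 1 and at 1.91 without replicate 2, and it kept its call. The labels do not describe how the in vitro RNA was prepared, and effects of the preparation cannot be told apart from the difference between the tables.

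**Figure D2:**
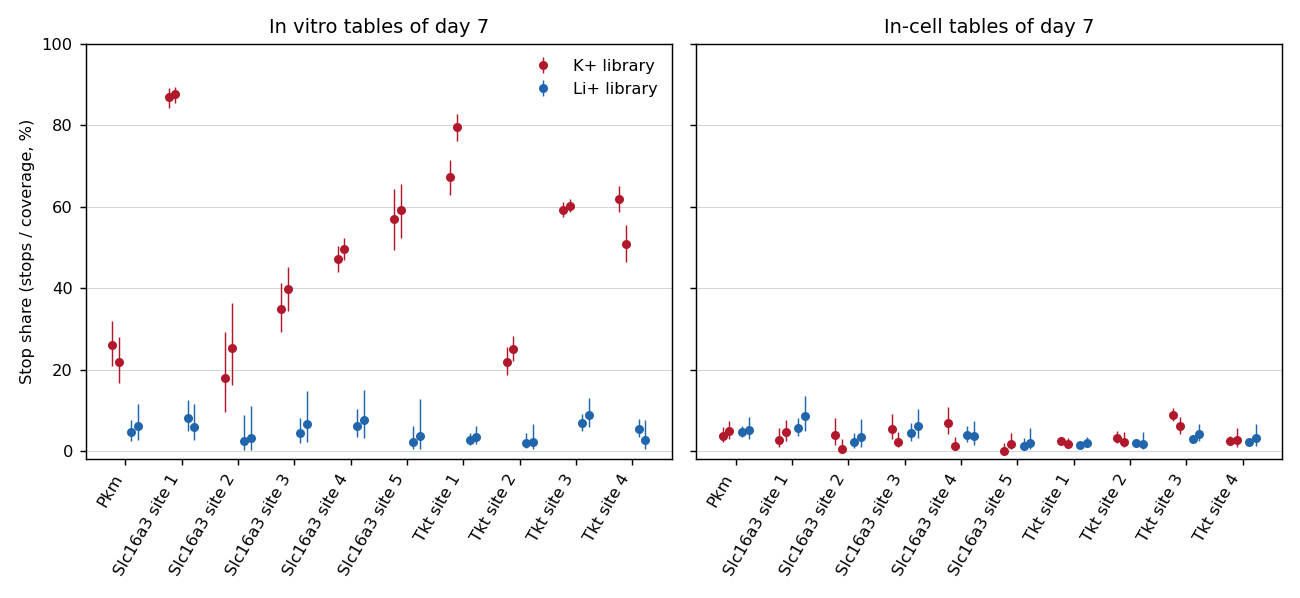
Stop share in percent at the 10 sites in the 2 in vitro tables (left) and the 2 in-cell tables of day 7 (right), in K+ (red) and Li+ (blue). Each point is 1 table, replicate 1 left of replicate 2. Bars are exact 95% intervals for counting error, too narrow at sites with 2 stop positions. The K+ points lie between 17.9% and 87.7% in vitro and between 0% and 8.89% in cells.

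Within cells, no site of the series passed the K+ against Li+ test on any day. On days 0, 3 and 7 each, 0 of 847 sites were called (0%), while 26 sites on day 0, 91 on day 3 and 40 on day 7 had an unadjusted p under 0.05 (limma). Of the 10 member sites 9 had the coverage to be tested, and Slc16a3 site 2 did not. The members had between 14 and 2618 reads of coverage in each in-cell library and cation, a depth at which small differences were not detectable. The in-cell shares are given below as measured.

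At Tkt sites 2 and 3 the K+ share lay above the Li+ share in all 4 samples of days 3 and 7 and below it in both samples of day 0. At site 3 the K+ share was 2.73% and 2.36% on day 0, 7.14% and 6.67% on day 3, then 8.89% and 6.08% on day 7. Its Li+ share was 3.14% and 7.34% on day 0, 2.49% and 2.42% on day 3, then 2.93% and 4.28% on day 7. In K+, both day 3 and both day 7 values lay above both day 0 values, while in Li+ both day 3 values lay below both day 0 values and day 7 overlapped day 0. The log2 odds ratio of K+ against Li+ was 1.50 ± 0.57 on day 3 (SE, limma, adjusted p = 0.359) and 1.17 ± 0.45 on day 7 (adjusted p = 0.917), against -0.88 ± 0.54 on day 0 (adjusted p = 0.992). Its change, day 7 against day 0, was 2.05 ± 0.71 (95% interval 0.53 to 3.56, limma, adjusted p = 0.559), where 0 of 847 sites (0%) were called and 57 had an unadjusted p under 0.05. It was 0.54 when the K+ and Li+ columns were exchanged in day 0 replicate 2, and 1.38 to 2.82 when 1 replicate was left out. The day 7 value was 0.51 without day 7 replicate 1 and 1.69 without replicate 2.

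The overlapping Tkt sites 1 and 2 had lower K+ shares. Tkt site 2 had 1.00% and 0.939% on day 0, 3.92% and 3.80% on day 3, then 3.31% and 2.28% on day 7 in K+, on 2 to 20 stops per library. Tkt site 1 had 1.75% and 0.942% on day 0, 3.24% and 2.18% on day 3, then 2.57% and 1.80% on day 7 in K+. Site 1 had the highest in vitro share of the Tkt sites, and its K+ share lay below that of site 3 in each of the 6 in-cell samples. Reverse transcriptase meets the stops of site 3 first, so these shares do not compare the motifs directly. Tkt site 4 had in-cell K+ shares of 1.03% to 6.25%, with days that overlapped.

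At Slc16a3 sites 1 and 4 both day 3 values of the K+ share lay above those of days 0 and 7. Over all sites outside ribosomal and mitochondrial RNA the K+ share was also highest in day 3 replicate 1, at 9.62%, against 4.90% in replicate 2. The part of this library difference in the values of sites 1 and 4 was not tested. Site 4 had a K+ share of 3.42% (4 of 117 reads) and 0% (0 of 33 reads) on day 0, 17.5% (11 of 63 reads) and 11.1% (10 of 90 reads) on day 3, then 6.98% (18 of 258 reads) and 1.38% (4 of 289 reads) on day 7. The exact interval at 0 of 33 ran up to 10.6%, but coverage at site 4 was summed over 2 stop positions, so this limit is too low. In Li+ site 4 had 10.0% and 6.12% on day 0, 3.43% and 0% on day 3, then 3.85% and 3.72% on day 7. The log2 odds ratio of K+ against Li+ on day 3 was 2.63 ± 0.82 (SE, limma, adjusted p = 0.336, unadjusted p = 0.00618).

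Slc16a3 site 1, the member with the highest in vitro share, had K+ shares of 3.92% and 0% on day 0, 15.0% (6 of 40 reads) and 5.19% (4 of 77 reads) on day 3, then 2.64% and 4.59% on day 7. Its Li+ shares were 9.09% and 7.69% on day 0, 2.34% and 2.22% on day 3, then 5.62% and 8.52% on day 7. K+ was below Li+ in every sample of day 0 and day 7 and above it in both samples of day 3. Sites 2, 3 and 5 had K+ shares of 0% to 5.88% in cells, on at most 13 stops a library. The days overlapped at sites 2 and 5, and at site 3 both day 7 values (5.49% and 2.29%) lay above both day 0 values (2.00% and 0%).

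The median over all sites was also highest on day 3 in the fit. Over the 847 sites with 20 or more reads in every in-cell column, the median log2 odds ratio of K+ against Li+ was -0.16 and -0.50 in the day 0 samples, 1.31 and 0.33 in the day 3 samples, and 0.49 and -0.12 in the day 7 samples. From the fit, the median by day was -0.31 on day 0, 0.69 on day 3 and 0.22 on day 7 over all sites. Over the 9 members it was -0.88 on day 0, 1.24 on day 3 and -0.20 on day 7. The part of this difference over all sites in the members' values was not tested.

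**Figure D3:**
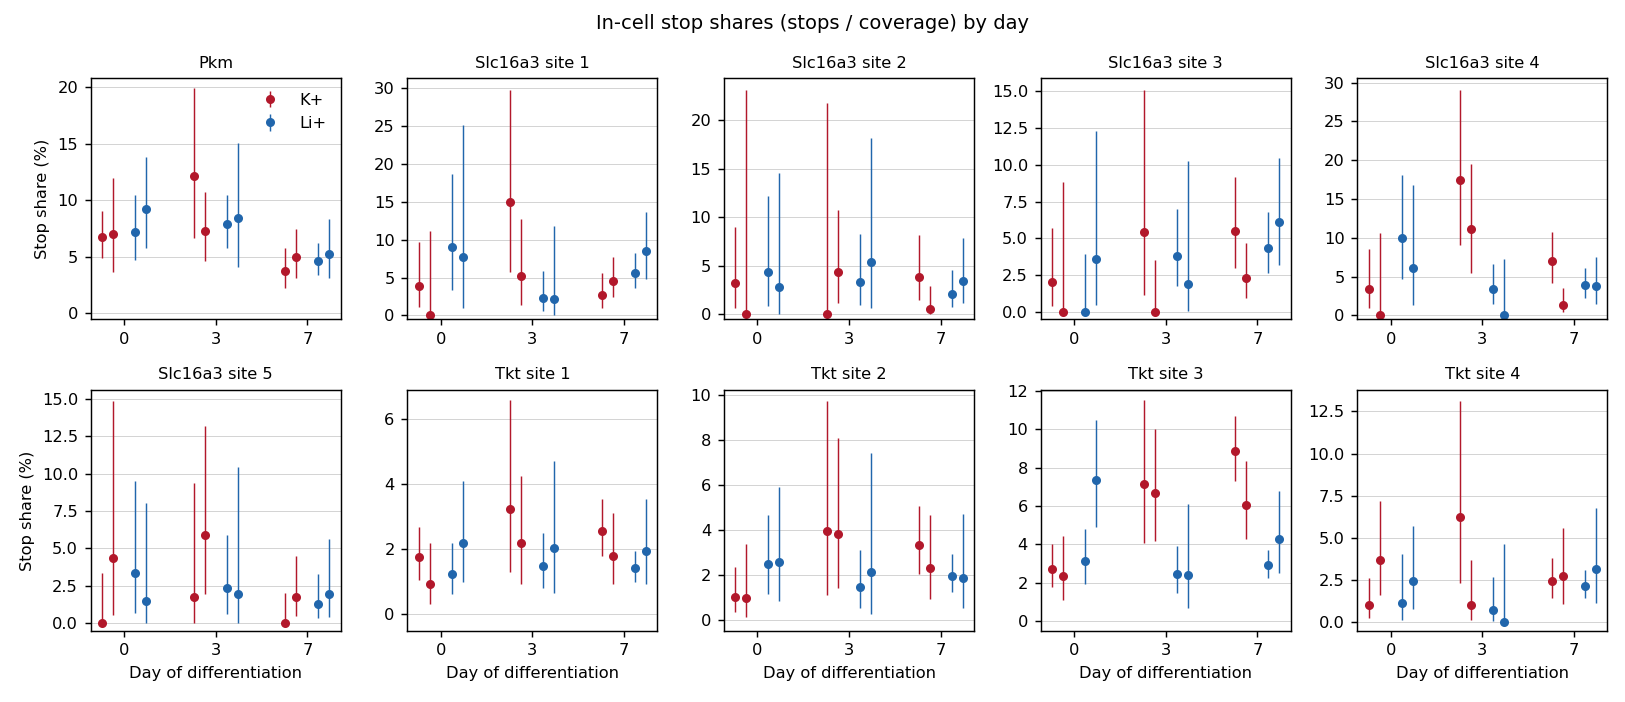
In-cell stop share in percent (stops divided by coverage) of each site by day of differentiation, in K+ (red) and Li+ (blue). Each point is 1 sample, and the vertical scales differ between panels. Bars are exact 95% intervals for counting error, too narrow at sites with 2 stop positions. At Pkm both cations are lowest on day 7, at Tkt site 3 the K+ points of days 3 and 7 lie above those of day 0, and at Slc16a3 site 4 the K+ points of day 3 are the highest.

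The Pkm motif lost stops between day 0 and day 7. Its K+ stops were 241 and 237 CPM on day 0, 156 and 241 CPM on day 3, and 33.6 and 113 CPM on day 7, scaled by trimmed mean of M values (TMM). Both day 7 values lay below all day 0 and day 3 values. In limma-voom over 327 sites with enough stops, the Pkm site fell by 2.15 ± 0.57 on the log2 scale in day 7 against day 0 (SE, adjusted p = 0.0306). In that comparison 6.73% of the 327 sites were called lower and 16.8% were called in either direction. The 22 sites called lower were 5 of 327 with library totals as the only scaling and 32 of 280 without ribosomal and mitochondrial sites. Without day 0 replicate 1, 0 of 207 sites were called lower by limma-voom (21 at an unadjusted p under 0.05), and without day 0 replicate 2, 0 of 486 (30 at an unadjusted p under 0.05). Pkm was the only 1 of the 5 member sites tested that was called.

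The Pkm change was called in 7 of 12 alternative settings and was negative in all 12. These include the test of Li+ stops in place of K+ stops (-1.52, called), which is another measurement and was added after the data were seen. Leaving out day 7 replicate 1 ended the limma-voom call (-0.99, adjusted p = 0.359), as did leaving out day 0 replicate 1 (-2.12, adjusted p = 0.152) or day 0 replicate 2 (-2.12, adjusted p = 0.250). It also ended with no filter on low counts (-1.58, limma-voom, adjusted p = 0.184) and with library totals as the only scaling (-0.95, adjusted p = 0.260). With library totals the median of all sites was 1.19 in place of 0.09, and relative to the median Pkm stood at -2.14, against -2.24 with TMM.

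Pkm also lost stops in the Li+ libraries. In the same test of Li+ stops, added after the data were seen, Pkm fell by 1.52 ± 0.45 on the log2 scale in day 7 against day 0 (SE, limma, adjusted p = 0.0351) and changed by -1.86 ± 0.47 in day 7 against day 3 (adjusted p = 0.0156). Of 324 sites tested there, 5.56% and 4.94% were called lower in these comparisons. The K+ share was 3.73% and 4.96% on day 7, against 6.80% (42 of 618 reads) and 7.02% (12 of 171 reads) on day 0. The Li+ share was 4.66% and 5.28% on day 7, against 7.18% and 9.25% on day 0.

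At Pkm no difference between the cations was detected in cells. The log2 odds ratio of K+ against Li+ at Pkm was -0.25 ± 0.37 on day 0, 0.13 ± 0.38 on day 3 and -0.20 ± 0.42 on day 7 (SE, limma, adjusted p = 0.992, 0.905 and 0.989). Its change, day 7 against day 0, was 0.05 (95% interval -1.16 to 1.25). Tests of 1 cation between days, also added after the data were seen, gave -0.72 ± 0.41 in K+ (adjusted p = 0.449) and -0.77 ± 0.38 in Li+ (adjusted p = 0.863) for the odds of a stop on day 7 against day 0 (limma), with 0 of 847 sites called (0%) in both. At an unadjusted p under 0.05 there were 122 and 43 such sites.

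The stop counts of Slc16a3 site 4 were highest on day 3. They were 23.0 and 0 CPM on day 0, 132 and 105 CPM on day 3, and 33.6 and 21.6 CPM on day 7, and the day 3 values did not overlap the others. The log2 change was 2.94 ± 0.66 in day 3 against day 0 (SE, limma-voom, adjusted p = 0.110) and -1.96 ± 0.55 in day 7 against day 3 (adjusted p = 0.0700), where 0.612% and 6.12% of the 327 sites were called. In day 7 against day 3, 5.2% were called higher and 0.917% lower. Neither change at site 4 passed the threshold. The first did with library totals alone (3.94, limma-voom, adjusted p = 0.00130), where the median over all sites was 1.04 in place of 0.07. The second did without ribosomal and mitochondrial sites (-2.12, limma-voom, adjusted p = 0.0351), where that median was -0.25 in place of -0.08. In both settings the median over all sites moved in the same direction as site 4.

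Tkt sites 1, 3 and 4 entered the test of K+ stops and none passed, while site 2 had too few stops to enter. Tkt site 1 had 115 and 98.6 CPM on day 0, 83.9 and 84.0 CPM on day 3, and 65.3 and 64.8 CPM on day 7. It rested on only 20 and 5, 7 and 8, and 35 and 12 K+ stops, and its days did not overlap. Its log2 change, day 7 against day 0, was -0.79 (95% interval -1.79 to 0.21, limma-voom, adjusted p = 0.271). Tkt site 3 had 144 and 178 CPM on day 0, 180 and 220 CPM on day 3, and 192 and 189 CPM on day 7, a log2 change of 0.27 in day 7 against day 0 (95% interval -0.64 to 1.18, limma-voom, adjusted p = 0.697). Tkt site 4 had 23.0 and 158 CPM on day 0, 71.9 and 21.0 CPM on day 3, and 33.6 and 37.8 CPM on day 7, with days that overlapped (-0.35 ± 0.79, limma-voom, adjusted p = 0.808). Its day 0 values rested on 4 and 8 K+ stops.

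Reads over a site, summed over K+ and Li+ and taken at the most read site of each gene, were used to follow RNA abundance. In these bulk samples fewer cells that make an RNA and less RNA per cell cannot be told apart. Pkm had 676 and 790 CPM on day 0, 723 and 862 CPM on day 3, and 378 and 548 CPM on day 7. Tkt had 1422 and 1874 CPM on day 0, 1260 and 1213 CPM on day 3, and 1056 and 870 CPM on day 7. Slc16a3 had 169 and 191 CPM on day 0, 320 and 307 CPM on day 3, and 172 and 369 CPM on day 7. For Pkm and Tkt both day 7 values lay below both day 0 values, and for Slc16a3 these days overlapped.

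None of the 3 genes passed the test of reads in any pair of days. Of 2389 genes tested, 18.4% were called in day 7 against day 0, 0.0837% in day 3 against day 0 and 12.6% in day 7 against day 3 (10.8% higher and 1.88% lower). In day 7 against day 0 the log2 change was -0.69 ± 0.29 for Pkm (SE, limma-voom, adjusted p = 0.118), -0.76 ± 0.27 for Tkt (adjusted p = 0.0785) and 0.48 ± 0.40 for Slc16a3 (adjusted p = 0.403), against a median of 0.57 over all genes tested. The Tkt change was called when day 0 replicate 1 was left out (-0.97, limma-voom, adjusted p = 0.0388). In day 3 against day 0 it was 0.11 for Pkm, -0.40 for Tkt and 0.82 for Slc16a3, with adjusted p-values of 0.999, 0.655 and 0.579.

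Per stop position, the reads over Tkt and Pkm were close together and above those over Slc16a3 on every day. On day 0 they were 824 ± 160 CPM for Tkt, 733 ± 81.0 CPM for Pkm and 90.0 ± 7.54 CPM for Slc16a3 (SD, n = 2). On day 3 they were 618 ± 16.8 CPM for Tkt, 792 ± 98.5 CPM for Pkm and 157 ± 4.54 CPM for Slc16a3. On day 7 they were 481 ± 65.6 CPM for Tkt, 463 ± 120 CPM for Pkm and 135 ± 69.6 CPM for Slc16a3. On days 0 and 7 Tkt and Pkm overlapped, on day 3 both Pkm values lay above both Tkt values, and Slc16a3 did not reach either gene in any sample.

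**Figure D4:**
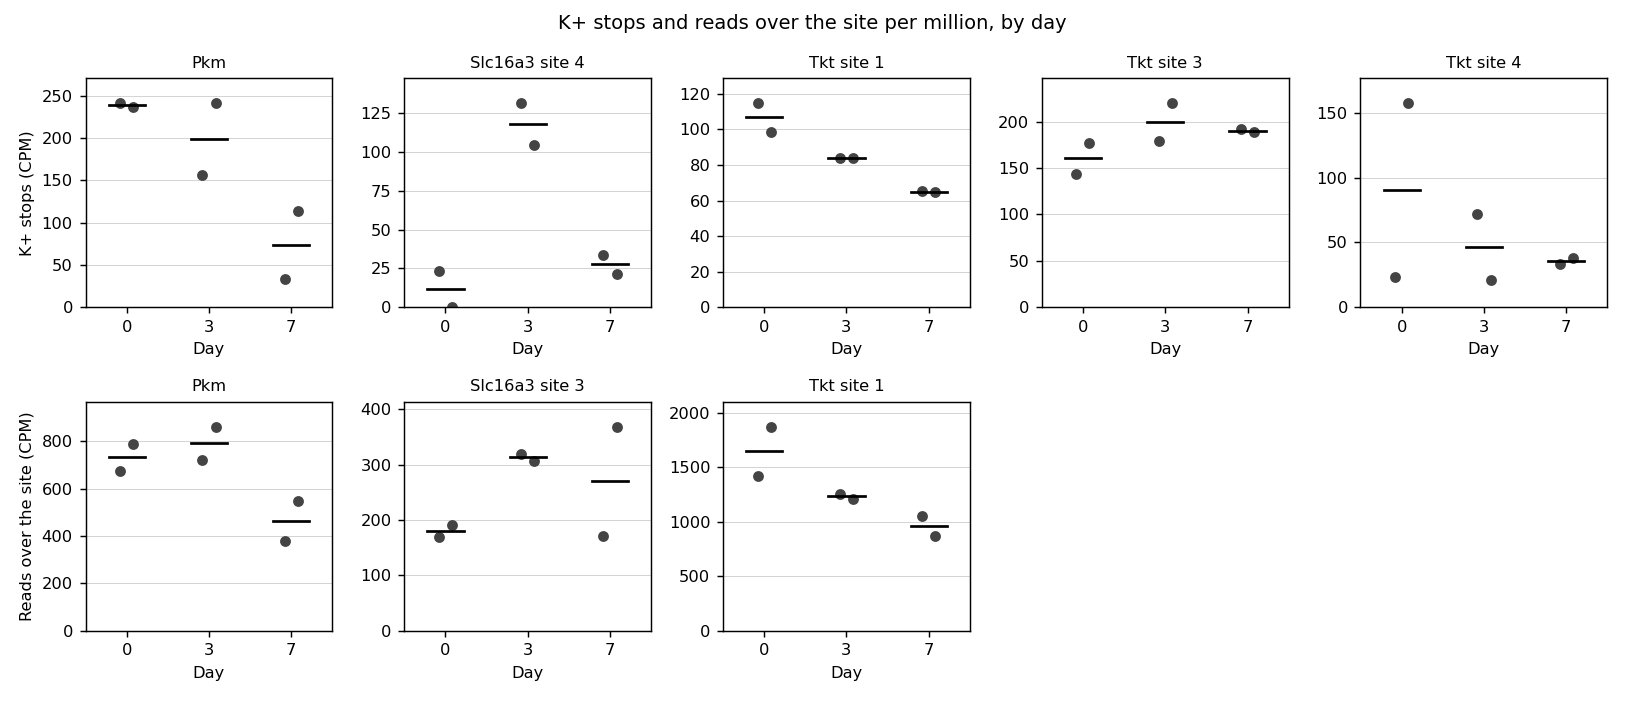
Scaled K+ stops in CPM at the 5 member sites that entered the test (top) and reads over the most read site of each gene in CPM (bottom), by day. Points are samples, replicate 1 left of replicate 2, and bars are means of 2. Pkm has its lowest stops and reads on day 7, and Slc16a3 site 4 has its highest stops on day 3.

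The genes whose reads followed each member most closely over the 6 in-cell libraries were taken by Pearson's r of log2 CPM among 953 genes with 20 or more reads in every library. For Pkm these were Zfp219 (r = 0.99), Sap130 (r = 0.98) and Sap30l (r = 0.97). For Tkt they were Epop (r = 0.99), Mpdu1 (r = 0.99) and Ncoa5 (r = 0.98). For Slc16a3 they were Gga2 (r = 0.93), Usp21 (r = 0.92) and Sae1 (r = 0.92). These values describe 6 libraries that share days and depths, and the highest of many correlations are high by selection.

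The other genes of these pathways were taken from 6 lists with 58 genes in all, of which 20 had a site. A site was listed for 4 of 18 glycolysis genes, 5 of 7 transport genes, 3 of 8 pentose phosphate genes, 2 of 13 genes of pyruvate entry, 4 of 4 splicing regulators and 2 of 8 regulators of hypoxia and glycolysis. Besides the members these were 17 genes with 46 sites. Glycolysis held Hk2, Pfkl and Gapdh, transport held Slc2a1, Slc2a3, Slc16a1 and Bsg, the pentose phosphate pathway held Pgls and Pgd, and pyruvate entry into mitochondria held Pdhb and Dld. The regulators of Pkm splicing were Ptbp1, Hnrnpa1, Hnrnpa2b1 and Srsf3, and those of hypoxia and glycolysis were Vegfa, which had too few reads to be tested, and Tigar.

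Of the 4 transport genes other than Slc16a3, 3 rose in reads on day 7. In day 7 against day 0, these were called higher, 0 of 3 glycolytic genes and 0 of 2 pentose phosphate genes were called, and over all lists 4 of 16 genes were called higher and 1 lower, where 15.2% and 3.14% of all 2389 genes were. The median log2 change over all genes tested was 0.57. The difference between lists was not tested, and the calls of the list genes outside the members were not recomputed under other settings. Slc2a3, the glucose transporter GLUT3, had 1116 and 933 CPM on day 7, against 283 and 419 CPM on day 0, a log2 change of 1.59 ± 0.29 (SE, limma-voom, adjusted p = 0.00918). Slc2a1, the glucose transporter GLUT1, had 1120 and 1102 CPM on day 7, against 364 and 604 CPM on day 0 (1.27 ± 0.31, limma-voom, adjusted p = 0.0296). Slc16a1, the lactate and pyruvate transporter MCT1, had 357 and 270 CPM on day 7, against 132 and 83.4 CPM on day 0 (1.43 ± 0.34, limma-voom, adjusted p = 0.0254). Bsg, which encodes basigin, the chaperone of MCT1 and MCT4, had 613 and 778 CPM on day 7, against 723 and 641 CPM on day 0 (0.01 ± 0.26, limma-voom, adjusted p = 0.978).

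Ptbp1, a splicing factor known to favour the M2 form of Pkm, was the list gene called lower. It had 984 and 1155 CPM on day 7, against 2052 and 3963 CPM on day 0, a log2 change of -1.41 ± 0.35 (SE, limma-voom, adjusted p = 0.0319). Hnrnpa2b1, another of these factors and the one with the most reads summed over its sites, had 7108 and 5277 CPM on day 7, against 4783 and 3947 CPM on day 0 (0.49 ± 0.28, limma-voom, adjusted p = 0.224). Dld, a subunit of the pyruvate dehydrogenase complex, was also called higher (3.86 ± 1.04, limma-voom, adjusted p = 0.0400), with 24.9 and 25.7 CPM on day 7, against 4.20 and 0 CPM on day 0, so the fitted size depends on the prior count. Its day 0 value above 0 was at the lowest listed coverage. Among the rest, Pfkl, Pgd, Pdhb and Tigar had the most reads of their lists outside the members when summed over sites and stop positions, which does not rank levels, and were not called, with log2 changes of -0.59, -0.25, 4.06 and -0.69. Pdhb was at 0 in 1 of the day 0 samples, and its fitted size likewise depends on the prior count. In day 3 against day 0, 0 of the 16 genes were called, where 0.0837% of all genes were. In day 7 against day 3 only Slc2a3 (1.46, limma-voom, adjusted p = 0.0142) and Slc16a1 (1.65, adjusted p = 0.0208) of the 16 were called, both higher. In that comparison 10.8% of all genes were called higher.

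In K+ stops, day 7 against day 0, 1 of the 14 tested sites of these other genes was called, a site of Slc2a1 that was higher (2.21 ± 0.62, limma-voom, adjusted p = 0.0377), where 10.1% of all sites were called higher. In vitro, 35 of 35 of their sites were called higher in K+ than in Li+, where 99.6% of all sites were. The K+ against Li+ odds were called higher in vitro than in day 7 cells at 30 of 35, where 74.5% of all sites were. In cells 0 of 25 were called on any day, where 0% of all sites were.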

How the data were processed

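The deposited tables list, for every site, the authors' counts of stops and of coverage in K+ and in Li+, per the file headers. All values are whole numbers and were taken as not normalized. Cutadapt, STAR and SAMtools with GRCm38.p6 and mm10 are named in the submitters' processing notes. The sources used here state neither versions nor the use of strand nor the treatment of reads with several matches. Deposited starts counted from 0 were made 1-based, which placed 102 of 102 checked motifs on the RefSeq GRCm38.p6 sequence. In day 0 replicate 1, 2 sites of Xist held no value and were set to 0.

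Counts were scaled by TMM and tested with limma-voom (limma 3.58.1, R 4.3.3) over the 6 in-cell libraries without a block. Sites needed 10 counts at the median library size in 2 libraries and 15 in total. Log2 odds of stops (pseudocount 0.5, at least 20 reads in every column) were tested with limma under beta-binomial weights. The main odds tests had no block either, so the K+ and Li+ columns of a sample were not paired. With a block for the sample, 0 of 847 sites were called in K+ against Li+ in cells on any day. Changes were called at a Benjamini-Hochberg adjusted p under 0.05 over all sites or genes tested. Intervals of shares are Clopper-Pearson 95% intervals (Python 3.11.15, scipy 1.17.1, pandas 2.3.3). They cover counting error only, since reads without molecular identifiers are not independent molecules. At sites with 2 stop positions a read can be counted at both, so the intervals there are too narrow.

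The members and lists were chosen with earlier results of these data known. Every member site was named, with the list genes past a threshold, the gene of each list with the most summed reads and the 3 genes most like each member. Scaling, filters, pseudocount, weights, the replicate block, the cation columns of 1 library and leaving out each replicate were varied. Tests of Li+ stops and of the odds in 1 cation were added after the data were seen. The code was tested on simulated data.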

Additional observations from a re-analysis of the deposited data

Results flagged for a closer look

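At every member site the K+ against Li+ difference itself differed between the in vitro tables and day 7 cells in the limma odds test. The difference in log2 odds, in vitro minus day 7, was 7.33, 3.69, 3.92, 3.91 and 6.65 at Slc16a3 sites 1 to 5, 6.05, 3.13, 2.96 and 4.74 at Tkt sites 1 to 4, and 2.68 at Pkm. The same held at 74.5% of all sites tested. All 5538 sites had the higher share in K+ in both in vitro tables, and these values enter the difference. Its direction is therefore not read as a result about the members.

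At 4 sites K+ lay above Li+ in every sample of one day and below it in every sample of another. The mean K+ minus Li+ share at Slc16a3 site 1 was higher by 14.2 percentage points on day 3 than on day 0, and day 7 minus day 3 gave -11.3. The odds test of these changes gave limma adjusted p-values of 0.256 and 0.988. At Slc16a3 site 4 day 3 was higher than day 0 by 18.9 percentage points (limma, adjusted p = 0.225).

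At Tkt site 2 day 3 was higher than day 0 by 3.65 percentage points and day 7 was higher than day 0 by 2.44 (limma on odds, adjusted p = 0.312 and 0.782). At Tkt site 3 these differences were 7.14 and 6.58 percentage points (limma on odds, adjusted p = 0.249 and 0.559). None of these changes between days passed the limma test, in which 0 of 847 sites were called. At an unadjusted p under 0.05 there were 104 sites in day 3 against day 0, 57 in day 7 against day 0 and 20 in day 7 against day 3.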

How the results depend on the processing

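The count of sites called in K+ stops, day 7 against day 0, was 84 with library totals alone, 154 with no filter, 94 with the 2 days fitted alone and 14 to 29 leaving out 1 replicate. In day 3 against day 0 it was 43 with library totals, 14 with no filter, 6 with the 2 days alone, 1 when K+ and Li+ columns were exchanged in day 0 replicate 2 and 0 with median-ratio factors, the replicate block, no ribosomal and mitochondrial sites or Li+ stops, and 0 to 13 leaving out 1 replicate. In day 7 against day 3 it was 31, 134 and 12 with the first 3 of these settings, 46 with Li+ stops and 0 to 27 leaving out 1 replicate. For reads over the site, day 7 against day 0 gave 290 with the replicate block, 200 with the 2 days alone and 5 to 919 leaving out 1 replicate, day 3 against day 0 gave 0, 0 and 0 to 197, and day 7 against day 3 gave 0 to 420 leaving out 1 replicate. For the K+ against Li+ odds, day 7 gave 1 site with a pseudocount of 1 and 1 with the exchanged columns. In vitro gave 1165 sites with 50 reads in every column and 2541 to 3993 leaving out 1 replicate, and its change against day 7 gave 914 and 1431 to 2154. The cause of these moves was not tested, except that fewer sites have 50 reads.

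Values that turned their direction had not passed the test. In K+ stops, day 7 against day 0, these were -0.063 at Slc16a3 site 4 with exchanged columns, 0.29 at Tkt site 1 and 0.59 at Tkt site 4 with library totals, and at Tkt site 3 -0.14 without ribosomal and mitochondrial sites, -0.14 with exchanged columns and -1.21 with Li+ stops. Without day 0 replicate 2, Tkt site 4 stood at 0.44. In the K+ against Li+ odds, exchanged columns gave 0.62 at Tkt site 3 and 0.11 at Pkm on day 0, and -0.31 for the Pkm change of day 7 against day 0. Leaving out 1 replicate gave -0.28 to 0.72 at Pkm on day 3 and -0.10 to 0.21 for that change. In reads, leaving out 1 replicate gave -0.11 to 0.99 for Slc16a3 in day 7 against day 0, -0.94 to 0.17 for Slc16a3 in day 7 against day 3, and -0.0076 to 0.24 for Pkm in day 3 against day 0.

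No pairing by replicate number was detected in K+ stops at 327 sites. Same-numbered samples' deviations correlated at 0.05 for days 0 and 3, -0.06 for days 0 and 7 and 0.04 for days 3 and 7. Counting noise at these sites also lowers such correlations, so pairing is not excluded. Reads were not checked in this way, and with the block their calls in day 7 against day 0 went from 439 to 290. With the replicate block 53, 0 and 16 sites were called in K+ stops in the 3 pairs of days, and Pkm stood at -1.97 (limma-voom, adjusted p = 0.0408). For the 46 member results given in the text and recomputed under other settings, 360 of 391 recomputed values kept direction and side of the threshold. Direction turned in 17, while the rest changed side of the threshold. In vitro odds and their change against day 7 made up 20 of these results and 140 of the recomputed values. Of those 140, 136 kept direction and side and 0 turned. All 5538 sites had the higher share in K+ in vitro, so their kept direction says little. They also held 136 of the 148 recomputed values past the threshold, and most other values were kept as not called. For 34 other member results that did not pass, 42 of 288 recomputed values turned direction and 0 passed. With 2 samples a day and as few as 14 reads, small changes in cells were not detectable. Where 1 replicate was left out, the lone sample was assumed to vary like the other groups. The planned quasi-likelihood count test was not run.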
